A study of Mus musculus with 6 samples.

Results

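The genes of myelin and of the oligodendrocyte, the cell that wraps axons of the brain with myelin, were followed in forebrain RNA after acute psychological stress. Mbp, Mog, Mag, Mobp, Cnp, Mal, Cldn11, Olig1 and Ermn were taken by symbol from the deposited count tables. All 9 were found among the 23282 entries, and all 9 passed the filter on low counts, which left 15239 genes tested. The animals were adult male C57BL/6J mice, and the labels name no genetic change. The 3 mice labelled water avoidance stress (WAS) were kept for 1 h on a small platform surrounded by water, and the 3 mice labelled control for 1 h on the same platform without water. All 6 mice thus shared the confinement to a platform, and no mouse left in its home cage was analysed here. One forebrain hemisphere sample per mouse, without olfactory bulb and cerebellum and taken right after the hour, gave 1 library of QuantSeq 3′ mRNA-Seq, which reads the 3′ ends of transcripts. The comparison asks whether the RNA level of these genes differed after 1 h of WAS.

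Oligodendrocytes arise from precursor cells, and the transcription factors Olig1, Olig2 and Sox10 direct their fate and maturation. Mature cells make sheets of membrane that are compacted by Mbp and sealed at their edges by tight junctions of Cldn11. Myelin transcripts are abundant and long-lived, and the forebrain holds large myelinated tracts such as the corpus callosum. In whole tissue, a lower number of oligodendrocytes and less RNA per cell cannot be told apart.

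Total counts lay between 9248520 and 10502029 per library, and levels are given as CPM, the counts scaled to the library total. In the count tables, WC opens the column heading of each of the 3 WAS libraries by label, and WS that of each of the 3 control libraries. Read as control and stress, the headings would exchange the groups and turn every direction below around, so directions are given for the labels. Some libraries stood apart in genes of single brain regions. The summed level of 10 choroid plexus genes was 64 CPM in WAS 1 and 19 CPM in control 2, against 949 to 1263 CPM in the other 4 libraries. The summed level of 10 striatal genes was 213 CPM in WAS 1 and 455 CPM in WAS 3, against 1151 to 2266 CPM in the other 4, although Drd2 of that list was at 0 in 5 libraries. The sum of 13 thalamic and midbrain genes was 345 CPM in WAS 1 and 351 CPM in WAS 3, against 238 to 263 CPM elsewhere. With Tcf7l2, which belongs to that list and is also an oligodendrocyte gene described below, it was 579 and 524 CPM, against 259 to 302 CPM. The part of these differences in the results below was tested only by leaving those libraries out.

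No difference between the groups was detected in any of the 9 genes in the fit without a replicate term. None of the 9 passed an unadjusted p of 0.05 in the quasi-likelihood test of edgeR, where 7.24% of all genes tested did (1104 of 15239; 3.85% higher and 3.4% lower in WAS). The share of all genes that passed with a fold change of at least 1.5, as the study required, was 2.38%. None passed an adjusted p of 0.05, and 0 of the 15239 genes tested did so either (0%), beside 22 with DESeq2, 49 with the replicate number as a block and 491 without WAS 2, none of them among the 9. In none of the 9 did the 3 values of one group lie wholly above or below the 3 of the other, which held for 12.2% of all genes tested (8.42% higher and 3.76% lower in WAS). Between libraries of the same replicate number, WAS lay above control in all 3 pairs for 4 of the 9 genes, Mog, Mag, Mobp and Cnp, and below in all 3 for none. Of all genes tested, 19.5% were higher in all 3 pairs and 11% lower. The point estimates were above 0 for 7 genes and below 0 for Mal and Cldn11, with a median log2 fold change of 0.07 beside 0 over all genes tested. In this fit the 95% interval of every one of the 9 lay within a fold change of 1.5 in either direction. The lowest bound was 0.832-fold, for Mal, and the highest 1.47-fold, for Ermn. Intervals are not given for the alternatives, where standard errors could be larger. With limma on quantile-normalized counts they were 0.21 for Mog and 0.20 for Ermn, beside 0.16 and 0.15 here. The p-values measure the spread between mice, with 3 in each group.

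**Figure D1:**
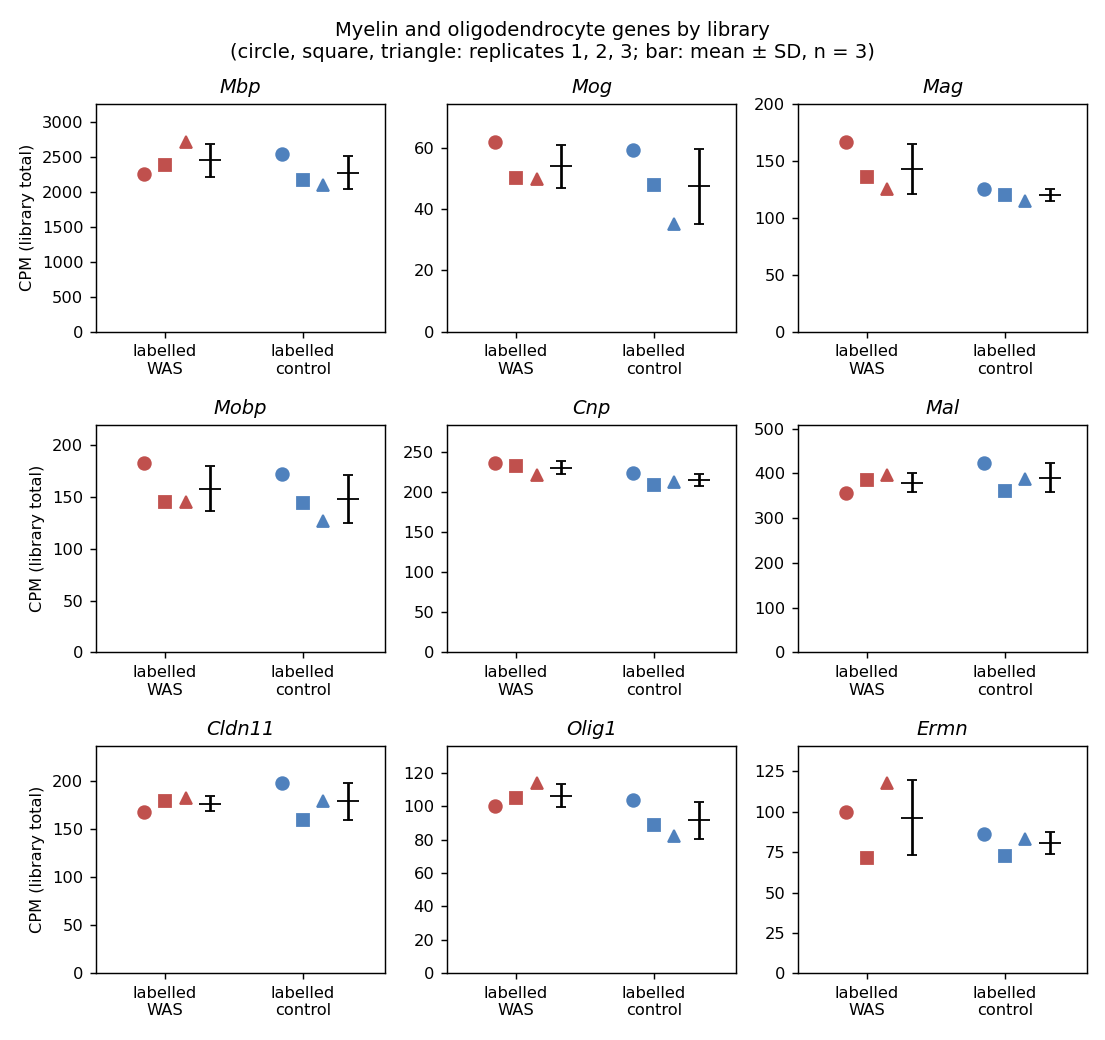
Level of each of the 9 genes in CPM of the library total (vertical axes, from 0), with the 3 libraries labelled WAS in red and the 3 labelled control in blue. Circles, squares and triangles are replicates 1, 2 and 3, and black bars are the mean ± SD (n = 3); in every panel the points of the groups overlap.

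Mbp encodes myelin basic protein, which holds the cytoplasmic faces of the membrane together. Its level was 2259.7, 2383.7 and 2721.7 CPM in WAS 1, 2 and 3 and 2543.3, 2176.9 and 2103 CPM in control 1, 2 and 3. The highest value was that of WAS 3, but control 1 lay above WAS 1 and WAS 2. The means were 2455 ± 239.1 CPM in WAS and 2274.4 ± 235.8 CPM in control (SD, n = 3). The log2 fold change was 0.07 with a standard error of 0.09 (adjusted p = 0.929). Mbp alone gave between 62.2% and 66.8% of all counts of the 9 genes in each library.

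Cnp, an enzyme of the cytoplasm-filled channels of myelin, was the steadiest of the 9 genes. It was read at 237.3, 233.2 and 222.1 CPM in the WAS libraries and at 224.7, 209.5 and 212.4 CPM in the control libraries. WAS 3 fell below control 1, so the groups overlapped, and the highest library was only 1.13-fold above the lowest. For Cnp the log2 fold change was 0.06 (SE 0.08), with an interval from -0.11 to 0.23 (adjusted p = 0.929). The biological coefficient of variation that edgeR fitted for Cnp was 8.72%, lower than in all but 2.6% of the genes tested.

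Mag, myelin-associated glycoprotein, lies on the innermost wrap, next to the axon. Its levels were 166.8, 135.9 and 124.8 CPM in the WAS libraries and 125.4, 119.6 and 114.8 CPM in the control libraries. WAS 1 and WAS 2 were the highest of the 6, and the groups overlapped only through WAS 3, which lay just below control 1. For Mag the log2 fold change was 0.21 (SE 0.11, interval -0.02 to 0.45, adjusted p = 0.722). With the replicate number as a block, Mag passed the unadjusted p of 0.05 at a log2 fold change of 0.20 (adjusted p = 0.512). It also passed with scaling to total counts, at 0.25, and without WAS 2 or WAS 3, at 0.24 and 0.30, whereas without WAS 1 the log2 fold change was 0.08. Adjusted p-values of Mag ran from 0.352 to 1 over 19 alternatives.

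Mog, myelin oligodendrocyte glycoprotein, sits on the outermost surface. Its level was 62, 50.1 and 49.7 CPM in the WAS libraries and 59.3, 48 and 35 CPM in the control libraries. Replicate 1 was high in both groups and control 3 was the lowest, so that the highest library was 1.77-fold above the lowest, the widest range of the 9 genes. For Mog the log2 fold change was 0.15 (SE 0.16, interval -0.21 to 0.51, adjusted p = 0.915), and it was -0.02 without control 3. Mobp, an abundant protein of compact myelin, had the same order of extremes. It was read at 182.7, 144.9 and 144.9 CPM in the WAS libraries and at 172, 143.8 and 126.2 CPM in the control libraries. Its log2 fold change of 0.06 (SE 0.12, adjusted p = 0.961) became -0.06 without WAS 1 and -0.03 without control 3. A stretch of 50 bases in the last 500 bases of Mobp is found in 2 other genes, and because reads with multiple alignments were counted its level is uncertain.

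Mal and Cldn11 were the 2 members with estimates below 0. Mal, a proteolipid that carries membrane to myelin, was read at 356.3, 385.4 and 396.7 CPM in the WAS libraries and at 424.2, 360.5 and 386.5 CPM in the control libraries. Cldn11, the claudin of myelin tight junctions, was read at 167.4, 179.6 and 182.6 CPM in the WAS libraries and at 197.4, 159.7 and 179 CPM in the control libraries. For both genes control 1 was the highest library, WAS 1 was low, and the 2 groups overlapped. The log2 fold changes were -0.08 (SE 0.09, adjusted p = 0.916) for Mal and -0.05 (SE 0.09, adjusted p = 0.951) for Cldn11. The latter was 0.01 without control 1.

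Olig1 is the only transcription factor among the 9 genes. It was read at 100.1, 104.6 and 113.5 CPM in the WAS libraries and at 103.4, 88.6 and 82.2 CPM in the control libraries. Control 2 and control 3 were the lowest of the 6, whereas control 1 lay above WAS 1. For Olig1 the log2 fold change was 0.18 (SE 0.10, interval -0.04 to 0.40, adjusted p = 0.742). Without control 1 it was 0.27 and passed the unadjusted p of 0.05, and adjusted p-values ran from 0.508 to 1 over 19 alternatives. The end of Olig1 overlaps Gm15966 on the other strand, and whether the counting used strand is not given in the sources used here.

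Ermn encodes ermin, a late protein of the oligodendrocyte cytoskeleton. It had the largest estimate of the 9 genes, and its spread was among the widest. Its level was 99.6, 71.5 and 117.5 CPM in the WAS libraries and 86.3, 72.8 and 82.9 CPM in the control libraries. The WAS libraries held both the highest value, in WAS 3, and the lowest, in WAS 2, with all control libraries between them. The Ermn log2 fold change was 0.22 (SE 0.15, interval -0.12 to 0.55, adjusted p = 0.829). Without WAS 2 it was 0.39 and passed the unadjusted p of 0.05 (adjusted p = 0.0688), and without WAS 3 it was 0.05. Without WAS 1 and WAS 3, the libraries low in striatal genes, it was -0.21, a value set by WAS 2 alone, the library with the lowest Ermn level. Adjusted p-values of Ermn ran from 0.0688 to 1 over 19 alternatives. Ermn is uncertain, since a stretch of 50 bases in its last 500 is found in 77 other genes and its end overlaps Galnt5 on the other strand.

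**Figure D2:**
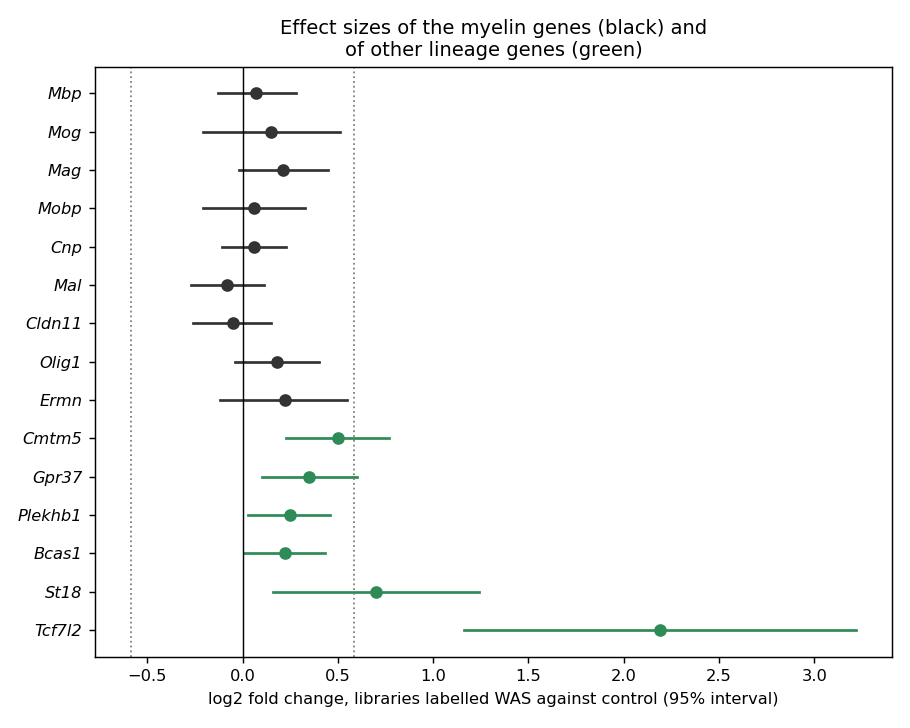
Log2 fold change of the libraries labelled WAS against control (horizontal axis), with 95% intervals from edgeR, for the 9 members in black and 6 other genes of the lineage in green; the dotted lines mark a fold change of 1.5. All 9 black intervals cross 0 and stay between the dotted lines, whereas those of the 6 green genes, which were taken for an unadjusted p under 0.05, lie above 0.

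The spread between mice was larger than counting error for every member. Within groups the CV of the CPM was between 3.58% for Cnp and 19.6% for Mog, with 19.4% for Ermn and 10% for Mbp. Counting error alone, which covers no technical error since reads carry no molecular identifiers, gave a CV from 0.649% for Mbp to 4.43% for Mog. Summed over the 9 genes, the level was 3632, 3689 and 4073 CPM in the WAS libraries and 3936, 3380 and 3322 CPM in the control libraries. The means of the sum were 3798.1 ± 240.2 CPM in WAS and 3545.8 ± 339.2 CPM in control (SD, n = 3). Control 1 lay above WAS 1 and WAS 2 in this sum, so the groups overlapped. Without Mbp, the means of the sum were 1343 ± 34 CPM and 1271 ± 105 CPM (SD, n = 3).

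The libraries did not rank alike for the 9 genes. In control 1, 7 of the 9 genes lay above their own mean over the 6 libraries, and in control 2 none did. In WAS 1, which was high for 6 of the 9, Mag was 0.36 and Mog 0.31 above their means on the log2 scale, while Mal was at -0.11 and Cldn11 at -0.08. In WAS 3 the order was another, with Ermn at 0.43 and Mbp and Olig1 at 0.21, while Mag was at -0.06. The ratio of Mag to Mal counts was 0.468 in WAS 1 against 0.296 to 0.353 in the other 5 libraries, and that of Ermn to Cnp ran from 0.306 in WAS 2 to 0.529 in WAS 3. The GC content of the last 500 bases was 57% in Mag, 37.8% in Mal and 35.8% in Cldn11, and across 9358 genes, which are not independent, the deviation of a library from the gene means correlated with this GC content at r = 0.13 in WAS 1. In control 3, with a Mag to Mal ratio of 0.297, r was 0.08, in WAS 2, with 0.353, it was -0.05, and in the other 3 libraries it lay between -0.11 and 0. The part of GC content in these ratios was not tested. With GC content taken into the scaling, 0 of the 9 genes passed an unadjusted p of 0.05.

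**Figure D3:**
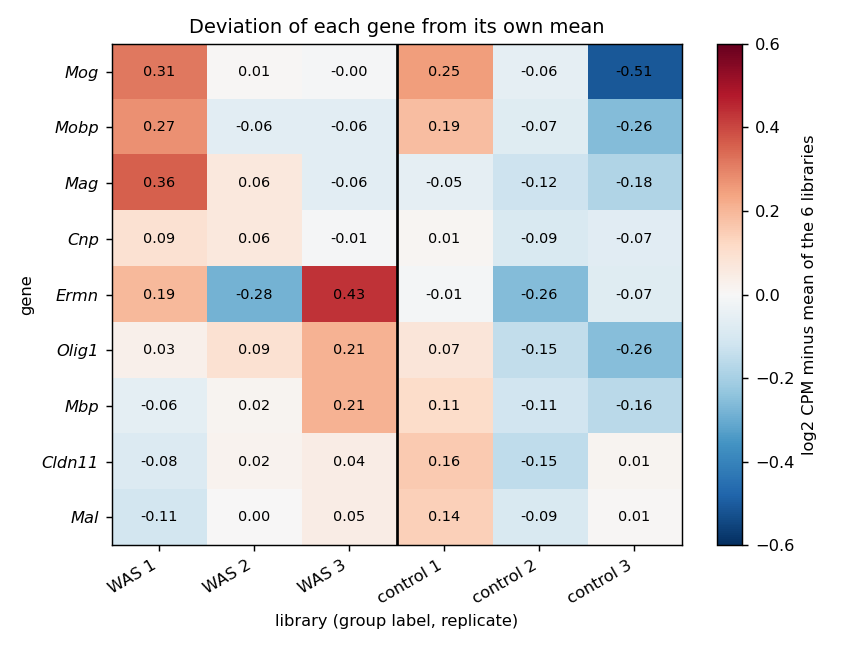
Deviation of each gene's log2 CPM from its own mean over the 6 libraries (colour and printed value, log2), with 1 column per library and 1 row for each of the 9 members. Mog and Mobp share their highest and lowest library, Mal and Cldn11 share their highest, and WAS 1 is high for Mag, Mog and Mobp but low for Mal and Cldn11.

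Some members moved together closely from mouse to mouse. The ratio of Cldn11 to Mal counts stayed between 0.443 and 0.47 in the 6 libraries, and the Pearson r of their log2 CPM was 0.96 (0.98 after subtraction of group means). Mog and Mobp had r = 0.95, with a ratio between 0.334 and 0.346 in 5 libraries and 0.277 in control 3. For Mbp and Olig1 r was 0.92, and 0.96 after subtraction of group means, where Mog and Mobp had 0.95. Mag and Mal, by contrast, had r = -0.44. These are descriptions over 6 libraries whose points share the library, its depth and its dissection. Of the 36 pairs of members, 32 had r above 0 and 14 above 0.5.

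The promoters of Mal with Cldn11 and of Mog with Mobp are shown, the pairs with the highest r over the 6 libraries. The windows are from RefSeq on build GRCm38.p6, run from 250 bases before to 50 after the gene start in RefSeq, which can differ from the gene start in the GENCODE annotation given below, and are printed 5′ to 3′ on the strand of the gene. RefSeq windows were matched for 7 of the 9 members. Capitals mark every match, on either strand, to ACAAAG, the core of sites for SoxE factors such as Sox10, to the E-box CANNTG bound by Olig factors, and to CTGGNAC, the Myrf motif. Mal lies at chr2:127633226-127656695 and Cldn11 at chr3:31149920-31164324, Mobp at chr9:120149707-120181484 and Mog at chr17:37010743-37023398 (GENCODE M21, mm10). Of the members whose promoter is not printed, Mag lies at chr7:30899176-30914873, Cnp at chr11:100574904-100591729, Olig1 at chr16:91269772-91271933 and Ermn at chr2:58045113-58052864.
Mal, chr2:127656646-127656945, minus strand: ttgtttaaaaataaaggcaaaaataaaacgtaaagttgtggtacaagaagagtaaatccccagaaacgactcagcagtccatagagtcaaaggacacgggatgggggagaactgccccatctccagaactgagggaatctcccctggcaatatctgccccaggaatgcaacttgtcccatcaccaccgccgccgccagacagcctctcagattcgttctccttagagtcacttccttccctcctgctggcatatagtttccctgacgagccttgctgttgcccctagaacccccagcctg
Cldn11, chr3:31149670-31149969, plus strand: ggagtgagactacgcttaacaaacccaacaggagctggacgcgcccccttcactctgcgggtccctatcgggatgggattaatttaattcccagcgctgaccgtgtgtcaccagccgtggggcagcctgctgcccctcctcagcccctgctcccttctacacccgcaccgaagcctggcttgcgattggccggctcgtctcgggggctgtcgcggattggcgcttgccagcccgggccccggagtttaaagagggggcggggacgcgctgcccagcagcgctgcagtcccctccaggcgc
Mobp, chr9:120149492-120149791, plus strand: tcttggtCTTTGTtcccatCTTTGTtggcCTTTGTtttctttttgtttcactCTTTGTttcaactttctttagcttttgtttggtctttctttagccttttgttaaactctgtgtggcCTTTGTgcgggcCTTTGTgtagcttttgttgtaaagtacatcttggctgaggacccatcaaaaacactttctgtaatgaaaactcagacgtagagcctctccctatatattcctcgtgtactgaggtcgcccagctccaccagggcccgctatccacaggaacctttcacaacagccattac
Mog, chr17:37023349-37023648, minus strand: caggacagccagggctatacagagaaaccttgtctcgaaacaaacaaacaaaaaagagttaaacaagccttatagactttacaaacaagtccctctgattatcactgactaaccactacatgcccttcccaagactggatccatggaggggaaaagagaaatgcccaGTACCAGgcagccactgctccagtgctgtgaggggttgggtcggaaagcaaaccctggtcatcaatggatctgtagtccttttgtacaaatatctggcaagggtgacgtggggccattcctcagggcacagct
The Mobp window held 6 matches to ACAAAG, a motif present in 18.7% of 32851 promoter windows of the same length. The Mog window held 1 match to CTGGNAC, present in 19.3% of windows, and none to ACAAAG. The Mal and Cldn11 windows held no match to any of the 3 motifs, and none of the 4 windows held CANNTG, present in 72.3%. A match describes letters and not a bound site, and the 2 windows of a pair shared no match.

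The other genes of the lineage were read from 4 lists that together hold 81 genes, all of them tested. Of these, 6 were higher in WAS at an unadjusted p of 0.05 and 0 lower, together 7.41% beside the 7.24% of all genes. Taken by direction, 3.85% of all genes were higher and 3.4% lower. With the replicate block, Tubb4a and Far1 also passed as lower, at log2 fold changes of -0.20 and -0.24. None passed an adjusted p of 0.05 without the block, and 1, Tcf7l2, passed with it. In the fit without the block, the estimates were above 0 for 51 genes and below 0 for 30, with a median log2 fold change of 0.07. The groups did not overlap for 9 of the 81 that were higher and 1 that was lower in WAS. Of all genes tested, 8.42% were higher and 3.76% lower without overlap. The share called in both directions together was close to that of all genes, which is no result about the lineage. Whether the direction of the 6 calls departs from that of all genes was not tested. The genes below are named for their values only.

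Of 30 other structural myelin genes, 3 were higher and 0 lower, with a median log2 fold change of 0.07. Cmtm5, a myelin membrane protein, was read at 30.3, 32.2 and 33.4 CPM in the WAS libraries and at 22.4, 24.1 and 19.4 CPM in the control libraries. Each WAS value of Cmtm5 lay above every control value. Its log2 fold change was 0.50 (SE 0.12, adjusted p = 0.477), and its unadjusted p stayed under 0.05 in all 19 alternatives, with log2 fold changes from 0.43 to 0.60 and adjusted p-values from 0.0822 to 1. Gpr37, a receptor of maturing oligodendrocytes, had a log2 fold change of 0.35 (SE 0.12, adjusted p = 0.582) and groups that did not overlap. Plekhb1 had a log2 fold change of 0.25 (SE 0.10, adjusted p = 0.632), also without overlap. Adamts4, given outside the rule for named genes, had every WAS value below every control value. Its log2 fold change was -0.72 (SE 0.35, adjusted p = 0.71), at 10 to 34 counts per library. Gpm6b, a membrane proteolipid that neurons also make, had a log2 fold change of -0.13 (SE 0.15).

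Of 19 genes of myelin lipid synthesis, 0 passed an unadjusted p of 0.05, and the median log2 fold change was 0.03. The 2 most abundant were Hmgcs1, of cholesterol synthesis, at 268.2 ± 27.5 CPM in WAS and 267.4 ± 34.9 CPM in control (SD, n = 3), and Fasn, the fatty acid synthase. Fasn had a log2 fold change of 0.10 (SE 0.08), and its 3 WAS values lay above the 3 control values.

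Among 15 transcription factors and chromatin regulators of the lineage, 2 were higher and 0 lower, with a median log2 fold change of 0.03. Olig2, the partner of Olig1, and Sox10 are given for their role, outside the rule for named genes. Olig2 was at 35.1 ± 10.2 CPM in WAS and 33.3 ± 7.4 CPM in control, and Sox10 at 37.6 ± 5.44 CPM and 34.8 ± 2.99 CPM (SD, n = 3). Zeb2, the most abundant of the list by its mean over the 6 libraries, had a log2 fold change of -0.14 (SE 0.12). St18 was read at 10.2, 8 and 11.4 CPM in the WAS libraries and at 6.95, 3.95 and 6.71 CPM in the control libraries, with a log2 fold change of 0.70 (SE 0.25, adjusted p = 0.585). Tcf7l2, a Wnt effector that oligodendrocytes share with neurons of the thalamus and midbrain, was at 234.1, 42 and 173.2 CPM in the WAS libraries and at 36.6, 20.6 and 38.4 CPM in the control libraries. Its high values were those of WAS 1 and WAS 3, the libraries in which the 13 other genes of the thalamic and midbrain list summed highest. The log2 fold change of Tcf7l2 was 2.19 (SE 0.47, adjusted p = 0.477). The adjusted p was 0.00577 with the replicate block and ranged from 5.83e-06 to 1 over 19 alternatives. Without WAS 1 and WAS 3, which leaves 1 WAS library, the log2 fold change was 0.36 (adjusted p = 0.951).

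Of 17 genes of precursors and newly formed oligodendrocytes, 1 was higher and 0 lower, with a median log2 fold change of 0.09. This was Bcas1, a marker of early myelinating cells, at 197.9 ± 21.1 CPM in WAS and 165.4 ± 10.1 CPM in control (SD, n = 3). Its log2 fold change was 0.22 (SE 0.09, adjusted p = 0.67), and the groups overlapped. Ptprz1, the next most abundant gene of the list, had 0.08 (SE 0.11).

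Other cell types gave values beside which the myelin genes can be read. The summed level of 10 neuronal genes was 6025 to 6615 CPM in the WAS libraries and 6827 to 7386 CPM in the control libraries, without overlap. At an unadjusted p of 0.05, 4 of the 10 were lower, beside 3.4% of all genes, among them Syt1 of synaptic vesicles with a log2 fold change of -0.24 (SE 0.07, adjusted p = 0.539). The sum of 10 astrocyte genes was 4801 to 4985 CPM in WAS and 4701 to 4732 CPM in control. At that threshold 3 of the 10 were higher, beside 3.85% of all genes, among them S100b with 0.32 (SE 0.09, adjusted p = 0.514). The estimates of the 10 were above 0 for 7 and below 0 for 3. The latter include Slc1a2, the most abundant astrocyte gene of the list, at -0.10 (SE 0.07), and Slc1a3 at -0.11 (SE 0.09). The sum of the 9 myelin genes overlapped between the groups, as given above. Schwann cells of peripheral nerve also make Mbp, Mag, Mal and Cnp, but of their defining genes Pmp2 was at 0 in all libraries and Prx at 0 to 0.1 CPM. Of the 3 Schwann cell genes that were tested 1 was higher at that threshold, Ncmap, at 6 to 43 counts per library (log2 fold change 1.41, SE 0.45, adjusted p = 0.565).

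**Figure D4:**
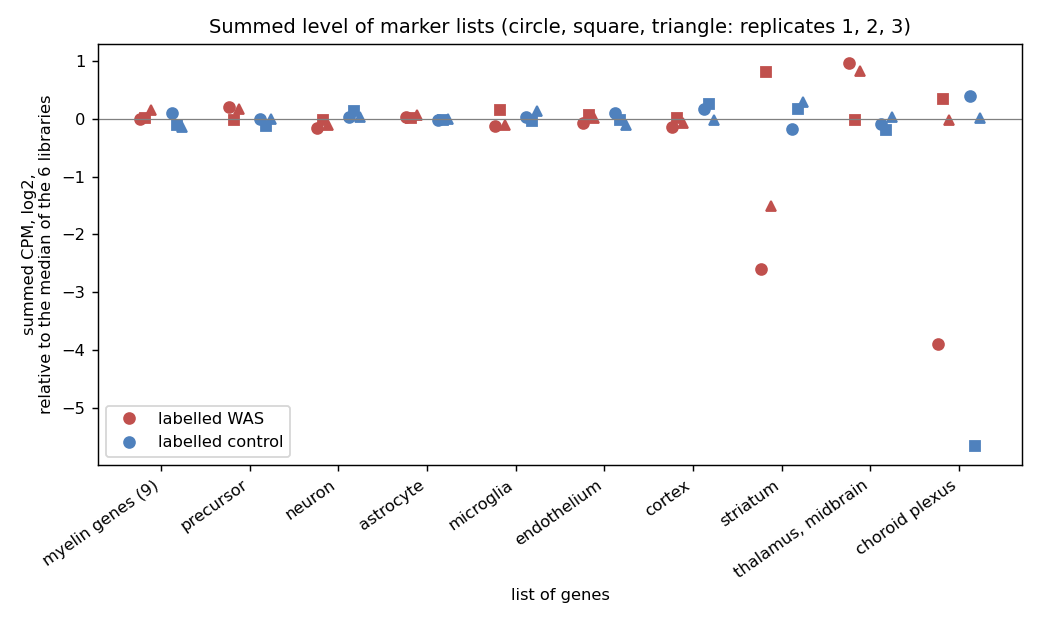
Summed CPM of lists of genes by library, as log2 relative to the median of the 6 libraries (vertical axis), with libraries labelled WAS in red and control in blue, and circles, squares and triangles for replicates 1, 2 and 3. The 9 myelin genes stay close to 0 in all libraries, whereas the striatal, thalamic and midbrain, and choroid plexus lists set single libraries apart.

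The genes most like the members over the 6 libraries were sought among 9391 genes of at least 10 CPM. Pearson r was taken between each gene's log2 CPM and the mean log2 CPM of the 9 members. The highest were Bcan (r = 0.984), Dok4 (0.983), Rilpl2 (0.983), Ptchd4 (0.980) and Mrpl18 (0.980), none of which is in the lineage lists. In all, 116 genes had r above 0.9. The 70 lineage genes compared had a median r of 0.42, beside 0.13 over all genes. Bcan, which encodes brevican of the extracellular matrix, was read at 200.4, 185.1 and 199.1 CPM in the WAS libraries and at 192.9, 159.2 and 151.2 CPM in the control libraries. Like most of the 9 members, it was low in control 2 and control 3 and high in control 1.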

How the data were processed

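RNA was measured in 6 mouse forebrain libraries, 3 labelled WAS and 3 labelled control, 1 per mouse. The authors prepared QuantSeq 3′ libraries, read them with single-end reads of 75 bp, used Bowtie2 for alignment and Bedtools for counting on mm10, with reads of several alignments kept. The deposited values are raw counts, without the authors' quantile normalization. The annotation used is not given in the sources used here.

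TMM scaling and the edgeR 4.0.16 quasi-likelihood fit (R 4.3.3) were applied to all 15239 genes with a mean log2(quantile-normalized count + 1) of at least 2, without a replicate term. The p-values were adjusted by Benjamini-Hochberg over these genes, and the 95% intervals are from the same fit. An exact permutation of 3 against 3 libraries cannot go below p = 0.1 and was not used. Total counts were 9248520 to 10067053 in WAS and 9977945 to 10502029 in control, which leaves counting errors of a few percent for the 9 genes. Test scripts were tested on simulated data. Named genes were the 9 members, from the lineage lists the 2 most abundant and those at an unadjusted p under 0.05, and the 5 genes most correlated with the mean of the members. Of the lists of other cell types, only genes that a result rests on are named, and some list genes are not reported here singly. The members and lists were chosen with earlier results of these data known.

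Labels number the replicates alike in both groups. Over 9400 genes, deviations of same-numbered libraries correlated at 0.13, 0.21 and 0.15, and of others at -0.13 to 0.01. A fit with the replicate number as a block was therefore run beside the main one. Other alternatives were total-count scaling, totals without Rn45s (4.96 to 7.32% of counts), other filters, DESeq2 1.42.0, limma 3.58.1, and each library left out. GC offsets and the removal of libraries low in choroid plexus or striatal genes were chosen after seeing the data. GC content was computed on GENCODE M21 transcript ends for 98.4% of symbols.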

Additional observations from a re-analysis of the deposited data

How the results depend on the processing

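The 9 myelin and oligodendrocyte genes passed an adjusted p of 0.05 in none of 19 alternatives. At an unadjusted p, 1 of the 9 (Mag) passed with scaling to total counts, with totals without Rn45s and with the replicate block, and 0 to 2 passed when 1 library was left out (2 without WAS 2: Mag and Ermn; 1 without WAS 3: Mag; 1 without control 1: Olig1). Of the 81 other lineage genes, 3 (without control 2) to 11 (without WAS 2) passed an unadjusted p beside 6. At an adjusted p, 1 passed with the block, also with GC offsets, and 0 to 1 with 1 library left out. Over all genes, 623 (without control 2) to 2084 (without WAS 2) passed an unadjusted p when 1 library was left out, and 675 without the libraries low in choroid plexus genes. At an adjusted p, 22 passed with DESeq2, 49 with the block, 72 with block and GC offsets, 1 without the libraries low in striatal genes and 0 to 491 with 1 library left out. Beyond Mag and Tcf7l2, the block brought Pllp (higher in WAS), Tubb4a and Far1 (both lower) under an unadjusted p of 0.05 and changed no other call among the 9 members and the 81 lineage genes. It was not read for single genes of other cell types. Gpm6b came under an unadjusted p of 0.05 in 1 alternative and Zeb2 in 3. Bcas1 and Plekhb1 lost their unadjusted call in 8 of 19 alternatives each, St18 in 4, Gpr37 in 3 and Tcf7l2 in 1. The cause was not tested.

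Estimates close to 0 changed sign. With 1 library left out, the log2 fold change ran from -0.01 (without WAS 3) to 0.15 for Mbp, from -0.02 (without control 3) to 0.33 for Mog, from -0.06 (without WAS 1) to 0.18 for Mobp, also below 0 without control 3, and from -0.13 to 0.01 (without control 1) for Cldn11. It ran from -0.33 (without WAS 2) to 0.04 (without WAS 1) for Gpm6b, and from -0.09 to 0.08 (without control 2) for Hmgcs1. Without the libraries low in choroid plexus genes, which leaves 2 against 2, it was -0.08 for Mobp, 0.06 for Gpm6b, 0.03 for Hmgcs1 and -0.03 for Ptprz1. Without those low in striatal genes, which leaves 1 WAS library (WAS 2, assumed to vary like the controls) against 3 controls, it was -0.06 for Mobp, -0.21 for Ermn, 0.18 for Gpm6b, 0.05 for Hmgcs1 and -0.11 for Ptprz1. Hmgcs1 was at 0 with total counts and without Rn45s and at 0.01 with limma. The median over the 9 genes ran from 0.03 to 0.18, and the medians of the lists from 0 to 0.12 (structural), -0.08 to 0.08 (lipid), -0.01 to 0.09 (factors) and -0.10 to 0.17 (precursor, beside 0.09, and 0.02 without control 2).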

Other observations

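Genes of microglia and of the vessel wall overlapped between the groups. The summed level of 10 microglial genes was 330 to 400 CPM in the libraries labelled WAS and 352 to 396 CPM in those labelled control, and that of 10 endothelial genes was 304 to 335 CPM and 299 to 344 CPM. No gene of either list passed an unadjusted p of 0.05 in edgeR. Of 10 genes of cortical projection neurons, 3 were lower in WAS and 0 higher at that threshold, which 3.4% of all genes passed as lower, with sums of 763 to 859 CPM in WAS and 834 to 1016 CPM in control. Of 10 thalamic and midbrain genes tested, 6 were higher and 0 lower at that threshold, which 3.85% of all genes passed as higher. Of these 6, Slc6a3, Gata3 and Tal1 were high in WAS 1 and WAS 3 only. In WAS 2, Slc6a3 and Gata3 were at 0 counts, and Tal1, at 0.973 CPM, lay below every control library. For 2 genes of the list every WAS value lay above every control value. One of the 6 is Tcf7l2, described with the lineage genes. None of the 10 passed an adjusted p in the fit without a replicate term.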
